A study of Mus musculus with 12 samples.

Results

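Wnt proteins are secreted, lipid-modified signals that bind frizzled receptors, either with the coreceptors Lrp5 and Lrp6, which stabilises beta-catenin, or with Ror and Ryk receptors, which act on cell polarity and movement without it. In the limb bud they come from several tissues: Wnt3 and other ligands of the ectoderm maintain the apical ridge, Wnt7a marks the dorsal ectoderm, Wnt5a drives the outgrowth of the distal mesenchyme, and Wnt4 and Wnt9a mark the joints that form between cartilage elements. Here 10 Wnt ligands (Wnt3, Wnt4, Wnt5a, Wnt5b, Wnt6, Wnt7a, Wnt7b, Wnt9a, Wnt10a and Wnt11) were followed in the mouse autopod, the hand or foot plate. The members were all probe sets that the array annotation assigns to exactly 1 of these genes. There were 20 such probe sets among 45265, with 13 on the A design covering all 10 genes and 7 on the B design covering 5 of them.

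All samples were autopods of wild-type mice, taken at E12.5, and no treatment or allele is named in the labels. The forelimb group held samples 11, 13 and 25 and the hindlimb group samples 12, 14 and 26, called by the numbers in their titles, and each sample was hybridised to both designs of the Affymetrix MOE430 GeneChip pair, 12 arrays in all. The strain, and whether a sample was 1 embryo or a pool, are not stated in the labels, so a p-value here reflects the spread among these 6 samples alone, which may be technical. The label of the A array of forelimb 11 does not name the limb. It was grouped by its title, and Tbx5, the forelimb T-box factor, gave 474.0 and 1145.1 there, against 8.0 to 173.8 in hindlimb.

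Signals are MAS5.0 intensities brought to a trimmed mean of 500 on each array. A probe set entered the test if 3 or more of the 6 arrays of its design gave it a signal of 100 or higher. A signal of 100 was reached by 65.5% to 68.1% of probe sets on an A array and 72.7% to 75.5% on a B array. Each difference is the hindlimb mean less the forelimb mean of log2(signal + 32), over 3 samples per limb, with limma's standard error (SE). The added 32 makes changes of dim probe sets look smaller. The B arrays were multiplied by a larger factor than the A arrays, so signals were compared within a design and, as probe sets differ in brightness for reasons other than RNA, only within a probe set. The number of arrays limits the precision.

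No Wnt ligand differed between the limbs past the threshold. Of the tested A members, 0 of 9 had a limma adjusted p under 0.05, where 0.0326% of all tested probe sets did. Of the B members 0 of 6 passed, against 0.0117% of all. At an unadjusted limma p under 0.05 there were also 0 of 9 and 0 of 6 members, against 5.54% of all probe sets on each design. The lowest adjusted p was 0.940 on the A array (Wnt5b) and 0.904 on the B array (Wnt4). The 95% interval of the difference (limma) lay inside a 2-fold change either way for 9 of 9 members on the A array and 5 of 6 on the B array, and inside a 1.5-fold change for 6 and 3 of them. These counts cover only the probe sets past the signal filter. The folds are those of the signal plus the added constant, which makes changes of dim probe sets look smaller. For dim probe sets the counts thus do not bound the fold of the signal itself. With 1 added in place of that constant, the difference of Wnt5b on the A array went from -0.356 to -0.479.

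All 9 tested differences on the A array were negative, from -0.36 to -0.03 with a median of -0.17, where 52.2% of all tested probe sets were negative with a median of -0.01. The B members were negative for 4 of 6, with a median of -0.06, where 52.2% of all were negative with a median of -0.01. The limbs did not overlap, with forelimb above, for 3 of 9 members on the A array (Wnt5b, Wnt10a and Wnt11) against 6.10% of all tested probe sets, and for 0 of 6 on the B array against 6.14%. Wnt5b passed the filter through its forelimb samples, with hindlimb 14 and 26 under 100, so it lends these counts no support. Probe sets of 1 gene share their target, and the genes were measured in the same 6 samples, so these counts are not independent observations. A sign of RNA quality moved with the limbs on the A array: the log2 ratio of 3' to 5' Gapdh signal was -0.239 to -0.078 in forelimb and -0.299 to -0.263 in hindlimb. For Actb this ratio overlapped there (0.118 to 0.261 in forelimb, 0.222 to 0.27 in hindlimb), and on the B array that of Gapdh overlapped too (-0.253 to -0.073 in forelimb, -0.173 to -0.113 in hindlimb). Markers of some other cell types also shifted between limbs on the A array, though not past the adjusted limma threshold. Erythroid markers summed to 27999 to 30749 in forelimb and 31420 to 34868 in hindlimb, with 0 of 4 genes negative. Of the cartilage genes 5 of 7 tested were negative (median -0.43), among them Matn4 (-0.79 ± 0.15), Acan (-0.72 ± 0.16) and Col2a1 (-0.61 ± 0.18), which encode matrix proteins. Col9a1 (0.19) and Hapln1 (0.07) went the other way. On the B array 0 of 2 tested cartilage genes were negative (median 0.2). The cartilage sums overlapped (9346 to 10553 in forelimb, 7834 to 9969 in hindlimb). An unadjusted limma p under 0.05 was found for 4 of 10 cartilage and 2 of 8 erythroid probe sets, against 5.54% of all, and 0 passed the adjusted threshold. No erythroid or cartilage gene was at 0 on all arrays. Sums also overlapped for markers of endothelium (2101 to 2220 in forelimb, 1978 to 2135 in hindlimb) and macrophages (1116 to 1158, 1005 to 1194). They overlapped too for muscle progenitors (836 to 1018, 755 to 884) and distal mesenchyme (10620 to 12039, 9571 to 11790). The part of RNA quality and of these cell types in the shared sign of the ligands was not tested.

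**Figure D1:**
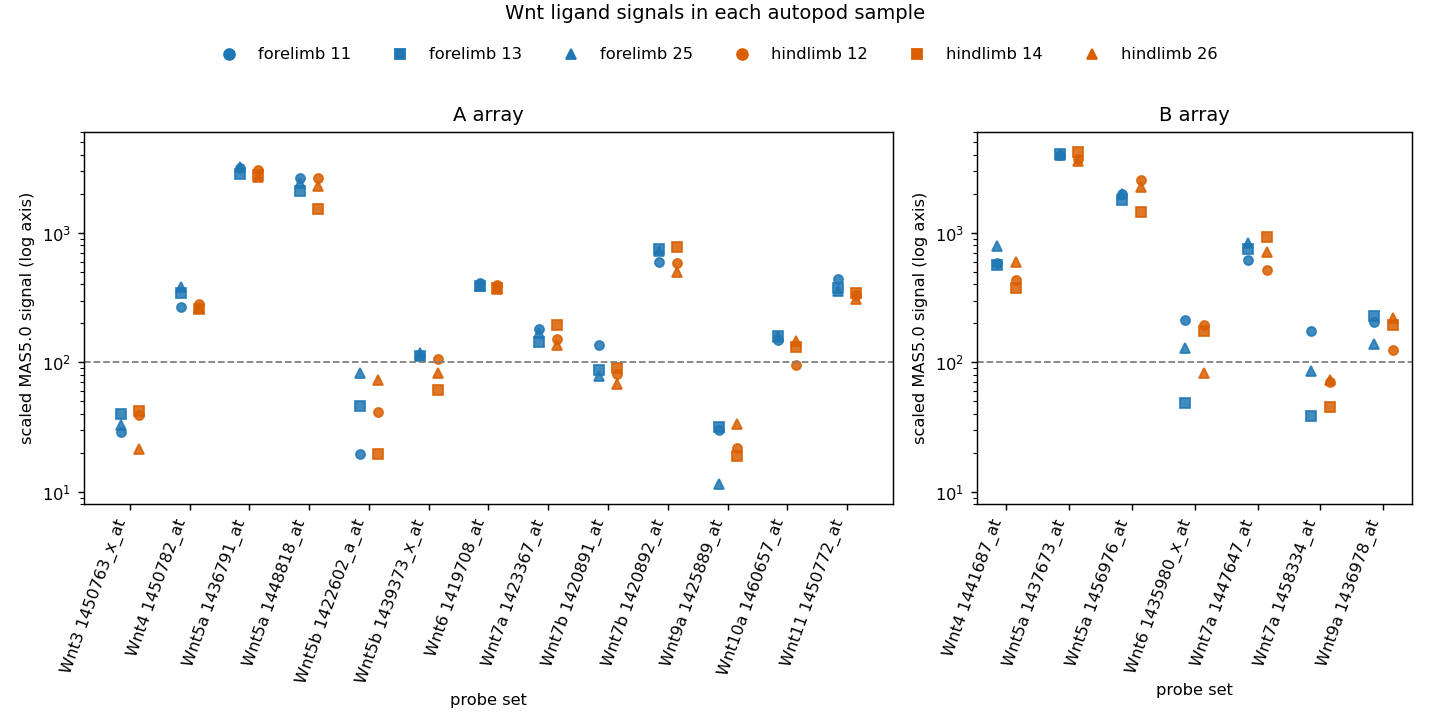
Scaled MAS5.0 signal (log axis) of the 20 Wnt ligand probe sets in each sample, forelimb in blue and hindlimb in orange, with the A array on the left and the B array on the right; the dashed line is the signal of 100 used as filter. The limbs overlap for all but 3 of the 15 tested probe sets, and the probe sets of Wnt3 and of Wnt9a on the A array stay below the line in every sample.

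Wnt11 and Wnt5b are members whose limbs did not overlap and for which RefSeq gives promoters (build GRCm38.p6; Wnt10a had no entry used here). RefSeq lists 2 starts for Wnt11 and 3 for Wnt5b, and the 250 bases before 1 start of each are shown, chosen because they hold a Tcf/Lef core; the windows of their other starts hold none. Capitals mark a Tcf/Lef core (CTTTGA, or TCAAAG on the other strand), the motif bound by the partners of beta-catenin, and a TATA box (TATAAA), each searched on both strands. The Wnt11 sequence is chr7:98834862-98835111, plus strand, and that of Wnt5b is chr6:119449387-119449636, minus strand.
Wnt11: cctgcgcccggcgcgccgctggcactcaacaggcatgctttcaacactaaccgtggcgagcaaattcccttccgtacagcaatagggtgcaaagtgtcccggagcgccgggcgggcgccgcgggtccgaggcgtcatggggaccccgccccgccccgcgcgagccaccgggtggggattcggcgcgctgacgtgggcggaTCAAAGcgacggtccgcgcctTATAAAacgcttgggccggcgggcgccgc
Wnt5b: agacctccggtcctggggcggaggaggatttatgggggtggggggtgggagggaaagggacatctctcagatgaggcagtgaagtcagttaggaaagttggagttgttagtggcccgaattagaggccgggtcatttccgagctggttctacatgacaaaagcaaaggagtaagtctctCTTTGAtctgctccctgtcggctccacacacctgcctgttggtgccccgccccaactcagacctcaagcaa

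In Wnt11 the Tcf/Lef core began 50 bases and the TATA box 29 bases before the start, and in Wnt5b the Tcf/Lef core began 71 bases before it. RefSeq promoters were found for 7 of the 10 members, with 10 starts in all. A Tcf/Lef core lay in 2 of these 10 windows, where 13.8% of 32851 mouse windows of this length held one, and a TATA box in 1 of 10, where 12.4% did. The GC box (GGGCGG) lay in 8 of 10, against 32.7% of all windows, and the CCAAT box (CCAAT) in 1 of 10, against 33.8%. A match describes the letters of these windows and not a bound site.

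Wnt5a, the ligand of the distal mesenchyme that acts largely through Ror2 without beta-catenin, was measured by 4 probe sets with signals of 1437 to 4235. Probe set 1436791_at of the A array gave 3189, 2869 and 3237 for forelimb 11, 13 and 25, against 3037, 2771 and 2688 for hindlimb 12, 14 and 26, the order of samples kept from here on. The limbs overlapped, and the difference was -0.13 ± 0.10 (SE, limma adjusted p = 0.966), with a 95% interval of -0.36 to 0.10. For 1437673_at of the B array the forelimb signals were 4015.9, 4050.2 and 3974.5, and the hindlimb signals 3713.8, 4235.1 and 3585.2. Forelimb values spanned a narrow range (4014 ± 37.9, SD, n = 3) inside that of hindlimb (3845 ± 344), and the difference was -0.065 ± 0.113 (limma adjusted p = 0.960).

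The other Wnt5a probe sets, 1 on each design, set hindlimb 14 apart from the rest. On 1448818_at of the A array the forelimb signals were 2641.9, 2113.1 and 2414.9, and the hindlimb signals 2646.9, 1536.3 and 2307.6. The lowest and the highest sample were both hindlimb samples. On 1456976_at of the B array the forelimb had 1988.3, 1785.5 and 1978.3 and the hindlimb 2554.7, 1436.9 and 2261.1, again with hindlimb 14 lowest and hindlimb 12 highest. Hindlimb 14 lay 0.54 and 0.45 log2 units below the mean of the 6 arrays on these probe sets (deviations of -0.54 and -0.45), but its deviation was -0.09 and 0.11 on the other 2 probe sets of the gene. The limb differences were -0.17 ± 0.18 (limma adjusted p = 0.978) and 0.08 ± 0.19 (adjusted p = 0.974). They depended on single samples: without hindlimb 14 the first became 0.054, and without hindlimb 12 the second became -0.085. The probe sets thus did not give 1 order of the samples for this gene, and where each lies on the transcript was not analysed here.

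**Figure D2:**
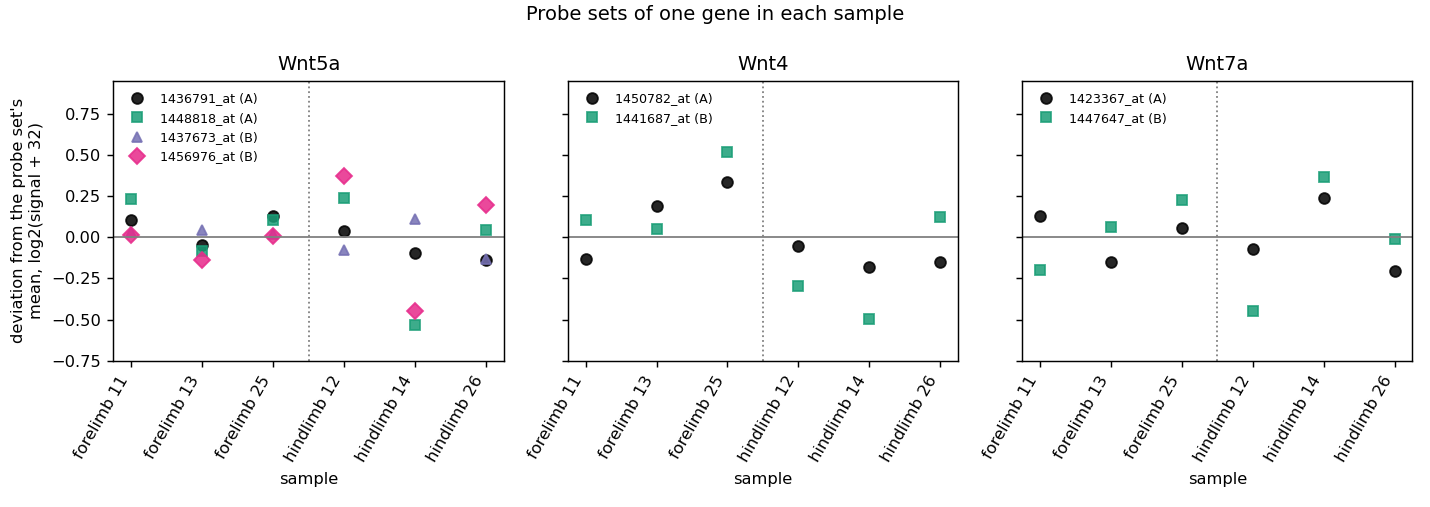
Deviation of each tested probe set of Wnt5a, Wnt4 and Wnt7a from its own mean over the 6 arrays of its design, on the log2(signal + 32) scale, for each sample; the dotted line parts forelimb from hindlimb. Wnt5a 1448818_at and 1456976_at are low in hindlimb 14 (-0.54 and -0.45), Wnt4 is highest in forelimb 25 and lowest in hindlimb 14 on both designs, and Wnt7a is highest in hindlimb 14 on both.

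Wnt5b, a close relative of Wnt5a known from limb mesenchyme and cartilage, was near the filter. Probe set 1439373_x_at gave 111.3, 112.4 and 117.7 for the forelimb samples and 105.5, 61.4 and 83.0 for the hindlimb samples. All 3 forelimb samples lay above the hindlimb samples, by the smallest margin over hindlimb 12. As hindlimb 14 and 26 were under 100, its place among the tested members rests mainly on the limb where it was higher. The difference of -0.36 ± 0.20 had a 95% interval of -0.81 to 0.09 (limma adjusted p = 0.940) and ranged from -0.49 to -0.21 when a sample was left out. The ending _x_at marks a probe set with probes that may bind other transcripts. The second probe set, 1422602_a_at, was under 100 on every array, with 19.6 to 82.7 in forelimb and 19.7 to 72.6 in hindlimb. By the rule for likeness, the profiles closest to that of 1439373_x_at over the 6 A arrays, among 14110 other tested probe sets with 1 gene, were those of Dsp (Pearson r = 0.996), Fmo1 and Kif11 (r = 0.988 each). All 3 were lowest in hindlimb 14, as Wnt5b was, which follows from their being picked for likeness to it, and 45 probe sets had an r of at least 0.95.

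Wnt11, a ligand of the mesenchyme known for signalling without beta-catenin, gave 435.9, 376.3 and 355.3 in the forelimb samples against 329.3, 341.9 and 307.6 in the hindlimb samples. Forelimb lay above hindlimb in all samples, with 389 ± 41.8 against 326 ± 17.3 (SD, n = 3). The margin between forelimb 25 and hindlimb 14 was small, the difference of -0.23 ± 0.14 had a 95% interval of -0.53 to 0.07, and it did not pass (limma adjusted p = 0.95).

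Wnt4, a ligand of forming joints, had the largest difference of any member on the B array. Its A probe set gave 265.8, 340.5 and 380.0 for forelimb, against 282.3, 256.2 and 261.8 for hindlimb. Forelimb 11 fell among the hindlimb samples, so the limbs overlapped, and the difference was -0.26 ± 0.16 (limma adjusted p = 0.951). Its B probe set gave 585.6, 561.4 and 788.5 for forelimb, against 434.2, 374.9 and 592.1 for hindlimb. Here hindlimb 26 fell among the forelimb samples, and the difference of -0.45 ± 0.21 had a 95% interval of -0.92 to 0.02 (limma unadjusted p = 0.059, adjusted p = 0.904). Forelimb 25 was highest and hindlimb 14 lowest on both designs. Each difference kept its sign in every alternative run, from -0.39 to -0.16 on the A array and from -0.62 to -0.30 on the B array.

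Summed joint interzone markers were higher in every forelimb sample than in any hindlimb sample, which Wnt4 was not on either array. The summed signal of the 5 genes of this list on the A array was 1868 to 2099 in forelimb and 1169 to 1464 in hindlimb, and that of the 3 on the B array was 2375 to 2463 and 1696 to 2021. Gdf5 made up most of the A sum (1168 to 1320 in forelimb, 703.5 to 1017 in hindlimb) and Erg most of the B sum (1776 to 1932, 1284 to 1523). Osr1 and Cd44 on the A array did not overlap either, but Osr2 there and Cd44 on the B array did. Erg on the A array and Osr2 on the B array were under the filter. None of the list genes was at 0. On the A array 4 of 4 tested genes were negative (median -0.42) and on the B array 2 of 2 (median -0.31), against 52.2% of all tested probe sets on each. On either array 0 passed the adjusted limma threshold. An unadjusted limma p under 0.05 was found for 2 of 4 and 1 of 2 tested probe sets, against 5.54% of all on each array. In these bulk samples fewer cells of a type and less RNA per cell cannot be told apart, and the part of joint tissue in the Wnt4 values was not tested. Cartilage genes differed by as much on the A array (median -0.43), though 0 of 2 were negative on the B array (median 0.2). The shift was thus not shown to be particular to joint tissue. Wnt9a is a ligand that marks the joints as well, and whether its difference departs from that of Wnt4 was not tested. Its B probe set 1436978_at had 204.3, 226.4 and 139.3 in forelimb and 123.6, 192.8 and 220.0 in hindlimb. Its limbs overlapped, with -0.08 ± 0.32 and a wide 95% interval of -0.78 to 0.62 (limma adjusted p = 0.983). The Wnt9a probe set on the A array was at 11.4 to 33.4 on all 6 arrays, far under the filter.

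**Figure D3:**
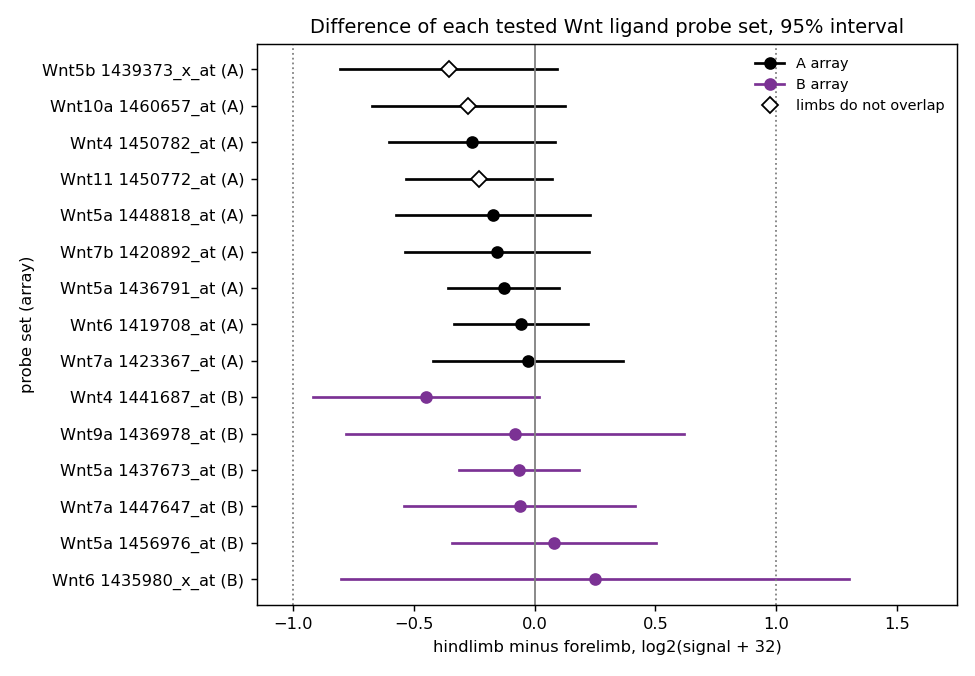
Difference, hindlimb less forelimb, of the 15 tested Wnt ligand probe sets on the log2(signal + 32) scale, with limma's 95% interval, for the A array (black) and the B array (purple); open diamonds mark probe sets whose limbs do not overlap and dotted lines a 2-fold change. Every interval includes 0, and the widest is that of Wnt6 on the B array (-0.80 to 1.30).

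Among the ligands known from the limb ectoderm, Wnt6 varied little between samples on the A array. Forelimb gave 409.6, 389.9 and 388.7 and hindlimb 397.2, 372.2 and 370.5, or 396 ± 11.7 against 380 ± 15.0 (SD, n = 3). The difference of -0.06 ± 0.13 had a 95% interval of -0.33 to 0.22 (limma adjusted p = 0.995). The dim B probe set 1435980_x_at ranged from 48.6 to 211.4 in forelimb and from 82.1 to 192.8 in hindlimb. Forelimb 13 alone set its sign, which turned from 0.25 to -0.18 without that sample.

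Wnt7b, which signals through beta-catenin in epithelia, was measured above the filter by 1420892_at. Forelimb gave 590.8, 746.9 and 722.2 and hindlimb 587.1, 779.3 and 494.9. The spread within the hindlimb exceeded the gap between limbs, as hindlimb 14 was the highest and hindlimb 26 the lowest of all 6 samples. The difference was -0.16 ± 0.17 (limma adjusted p = 0.978) and came to between -0.33 and -0.01 when samples were left out. A dimmer Wnt7b probe set, 1420891_at, reached 100 only in forelimb 11 (136.1) and was at 67.7 to 90.7 in the other samples.

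Wnt7a, the dorsal signal that induces Lmx1b in the mesenchyme below, did not part the limbs. Its A probe set read 179.9, 142.7 and 169.5 in the forelimb samples and 152.0, 195.8 and 135.8 in the hindlimb samples. The B probe set 1447647_at read 617.1, 746.3 and 839.2, against 512.8, 926.3 and 708.5 for hindlimb. Hindlimb 14 was highest on both designs, as it was for Wnt7b. The differences were -0.03 ± 0.18 (limma adjusted p = 0.997) and -0.06 ± 0.22 (adjusted p = 0.982), and both turned sign with some samples left out. The third Wnt7a probe set, 1458334_at, passed 100 in forelimb 11 alone (175.7). Lmx1b itself, on the B array, had 1731.9, 1695.5 and 2578.2 in forelimb, against 1364.8, 1328.4 and 1795.5 in hindlimb. Its limbs overlapped only through hindlimb 26, and the difference was -0.40 ± 0.19 (limma unadjusted p = 0.055, adjusted p = 0.904).

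Wnt10a, a ligand of the ectoderm and its appendages, gave 149.7, 160.8 and 157.0 for forelimb, against 96.0, 131.8 and 146.7 for hindlimb. The limbs did not overlap, although forelimb 11 and hindlimb 26 were separated by only a small margin, and hindlimb 12 lay lowest. The difference was -0.27 ± 0.18, with a 95% interval of -0.67 to 0.13 (limma adjusted p = 0.955), and without hindlimb 12 it was -0.13. Wnt3, which maintains the apical ridge in the mouse, read 28.8, 39.8 and 32.7 for forelimb and 39.0, 42.3 and 21.3 for hindlimb. It is measured here by 1 probe set of the _x_at kind, under the filter on every array. Fitted without a filter its difference was -0.003 ± 0.172 (limma adjusted p = 0.9998), on a scale where the added 32 is about as large as its signals.

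Surface ectoderm markers summed higher in forelimb on the A array. The sum of 14 ectoderm markers was 5719 to 6986 in forelimb and 4800 to 5551 in hindlimb. Of 13 tested genes 8 were negative (median -0.18), against 52.2% of all tested probe sets, with 0 past the adjusted limma threshold. An unadjusted limma p under 0.05 was found for 5 of 16 tested probe sets, against 5.54% of all. Krt5, Krt14 and Krt15, keratins of the basal layer (-0.40, -0.83 and -1.38), carried the gap: for the other 11 genes, a split chosen after these values were seen, the forelimb sums of 3381 to 3805 overlapped the hindlimb sums of 3418 to 3644. Krt8 and Krt18, keratins of simple epithelia, had 0.28 and 0.30, and Trp63, Grhl2 and Cdh1 had 0.09, 0.07 and 0.01. Krt17, Esrp1, Cldn6, Perp and Epcam were negative there, at -0.452, -0.243, -0.235, -0.185 and -0.013. On the B array Trp63 had -0.42 ± 0.23 and Epcam -0.03 ± 0.33. The 2 ectoderm genes on the B array summed to 794 to 1403 in forelimb and 674 to 1268 in hindlimb, with overlap. For 7 apical ridge genes on the A array the sum was 1026 to 1137 and 837 to 1064, with overlap, and Dlx5 was its brightest gene. Of the 7 genes 4 were under the filter, among them Fgf8, the main ridge signal, at 43.4 to 70.6. The 3 tested genes were negative (median -0.14). On the B array 2 of 3 ridge genes were negative (median -0.03), and their sums of 1066 to 1726 and 1163 to 1454 overlapped. No gene of either list was at 0 on all arrays. The 5 ectodermal Wnt ligands on the A array summed to 1359 to 1480 in forelimb, inside the hindlimb range of 1169 to 1521. Wnt7b made up the largest part of that sum, and Wnt3 in it was under the filter. Of the tested ligands 4 of 4 were negative on the A array (median -0.11) and 1 of 2 on the B array (median 0.09). The part of the amount of ectoderm in the ligand values was not tested.

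**Figure D4:**
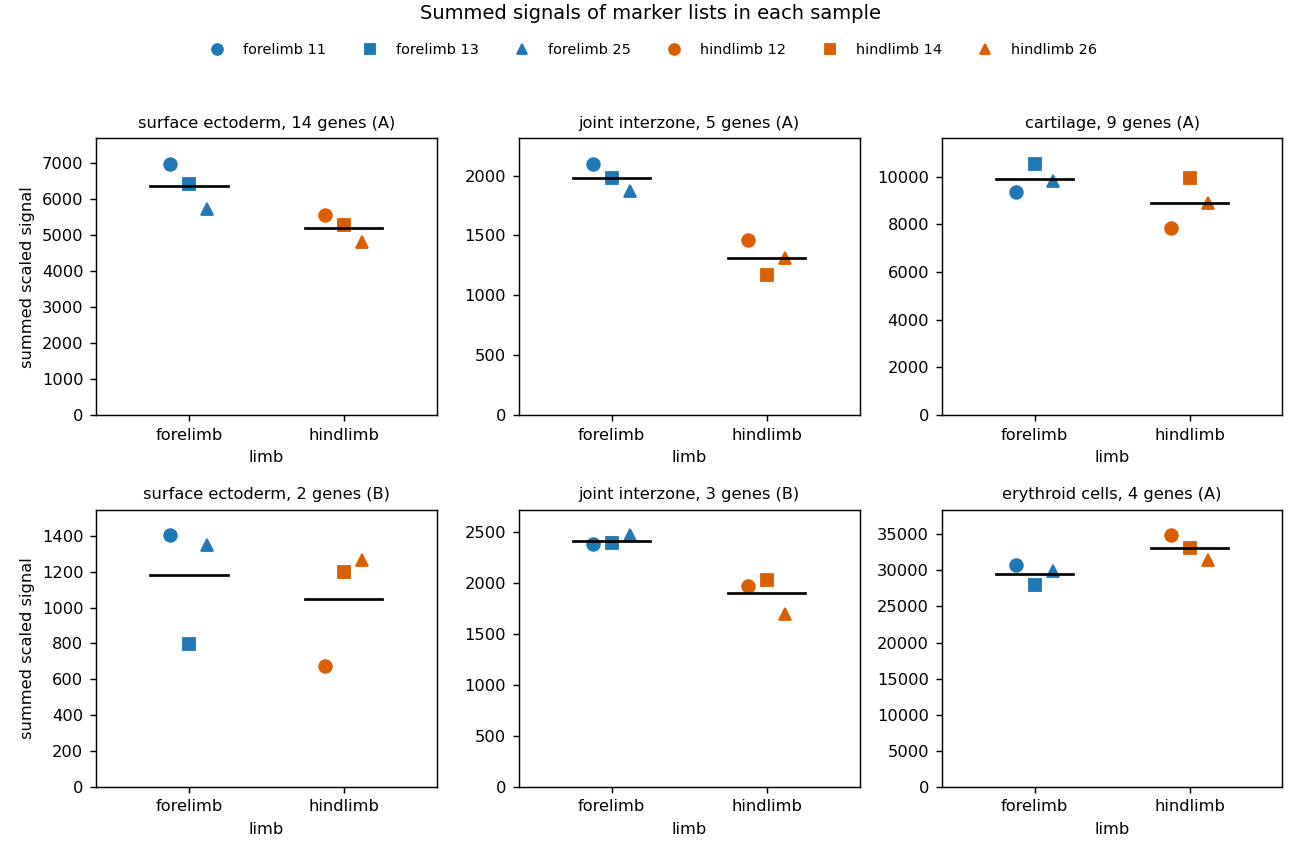
Summed scaled signal, brightest probe set of each gene, of surface ectoderm and joint interzone markers (A and B arrays) and of cartilage and erythroid markers (A array) in each sample, with the mean of each limb as a line. Forelimb lies above hindlimb without overlap for the ectoderm on the A array and the joint markers on both, erythroid sums lie higher in hindlimb (31420 to 34868 against 27999 to 30749), and the ectoderm on the B array and cartilage overlap.

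Of the other 9 mouse Wnt ligands, 8 were under the filter on the A array, and Wnt2b alone was tested there (111.7 to 155.7 in forelimb, 104.8 to 124.5 in hindlimb, -0.17 ± 0.18). On the B array Wnt8b had 0.19 ± 0.31. Wnt9b there gave -1.06 ± 0.49 (limma unadjusted p = 0.056, adjusted p = 0.904), with forelimb 13 at 461.4 and the other samples at 51.4 to 132.1, so forelimb 13 stood far above the rest.

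The rest of the pathway also had no member past the limma threshold in either direction on either array. An unadjusted limma p under 0.05, which 5.54% of all tested probe sets had on each array, was found on the A array for 5 of 18 probe sets of frizzleds and coreceptors, 4 of 17 of antagonists and 2 of 13 of R-spondins and response genes. It was found there for 0 of 24 of transducers, 0 of 7 of planar polarity, 0 of 5 of processing and 0 of 1 of other Wnt ligands. On the B array it was found for 3 of 12 of frizzleds, 2 of 14 of transducers and 1 of 14 of R-spondins and response genes, and for 0 of 5 of antagonists, 0 of 11 of planar polarity, 0 of 1 of processing and 0 of 2 of other Wnt ligands. Negative differences, in the counts that follow, made up 52.2% of all tested probe sets on each array. Of the frizzled receptors and coreceptors 11 of 12 tested genes were negative on the A array (median -0.21, by the brightest probe set) and 6 of 10 on the B array (median -0.11). Their smallest p belonged on both arrays to Fzd8, with -0.50 ± 0.14 on the A array (limma unadjusted p = 0.0049, adjusted p = 0.600) and -0.63 ± 0.22 on the B array (adjusted p = 0.887). Fzd8 had 308.3 to 348.0 in forelimb and 201.4 to 241.8 in hindlimb on the A array, and 384.9 to 531.4 and 224.3 to 322.8 on the B array. Its limbs did not overlap on either, although it did not pass.

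For the genes that load and release the ligands, Wls, the carrier that takes Wnt proteins to the cell surface, had -0.06, -0.02 and 0.11 on its 3 A probe sets. Its B probe set gave -0.39 ± 0.43 (limma adjusted p = 0.943), with 273.5, 100.7 and 122.8 in the forelimb samples and 162.8, 90.0 and 84.3 in the hindlimb samples, which overlapped. Among the secreted and surface antagonists 9 of 12 genes were negative on the A array (median -0.16) and 3 of 4 on the B array. Frzb, a secreted frizzled-like inhibitor, went the other way at 1.02 ± 0.18 (limma adjusted p = 0.183), and Dkk3, of the Dickkopf family, had -0.75 and -0.385 on 2 probe sets. For the cytoplasmic and nuclear transducers 10 of 13 genes were negative on the A array (median -0.10) and 2 of 6 on the B array (median 0.04).

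R-spondins and beta-catenin response genes were divided. On the A array 6 of 10 were negative (median -0.06), with Lef1, a nuclear partner and target of beta-catenin, at -0.62 ± 0.21 (limma adjusted p = 0.675) and Msx2, a homeobox target, at -0.35 ± 0.12 (adjusted p = 0.684). Lef1 read 154.1 to 219.9 in the forelimb samples against 78.3 to 138.8 in the hindlimb samples, without overlap, but its B probe set looked up after these values were seen, had 0.001 ± 0.169. By its brightest B probe set, looked up afterwards as well, Msx2 had 0.15 ± 0.26. On the B array 5 of 10 genes of the list were negative (median -0.01). Rspo3, a secreted enhancer of Wnt signalling, had 0.67 ± 0.18 there (limma adjusted p = 0.775). Planar polarity genes, which act in the Wnt5a branch, were negative for 3 of 6 on the A array and 3 of 7 on the B array.

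**Figure D5:**
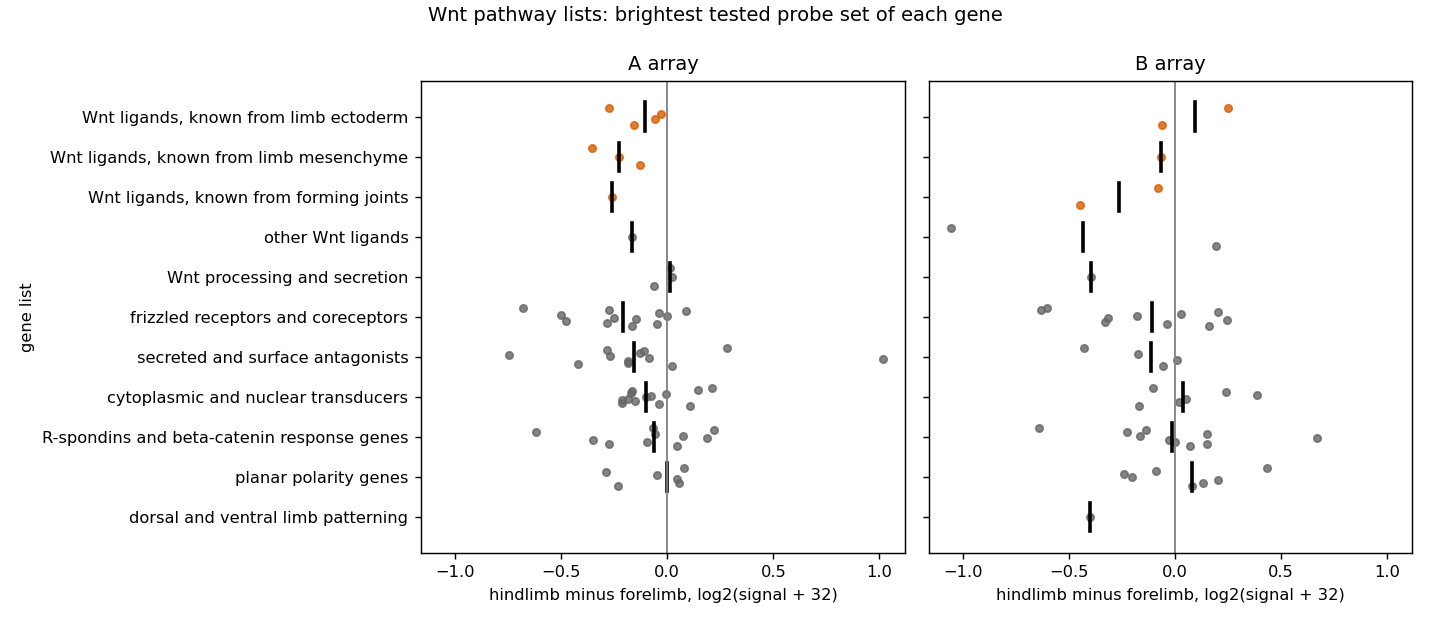
Difference, hindlimb less forelimb in log2(signal + 32), of the brightest tested probe set of each gene in the Wnt pathway lists, Wnt ligands of the 3 tissues in orange and other lists in grey, with the median of a list as a black bar. The medians on the A array run from -0.26 (joint ligands, 1 gene) to 0.01 (Wnt processing and secretion), and single genes spread to both sides of 0 within most lists.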

How the data were processed

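The deposited files hold linear intensities, 1 MAS5.0 signal for each probe set, per the labels. For forelimb 11 on the A array the label does not say so. Their trimmed mean was 350.1 on each A and 70.0 on each B array as deposited, and a factor of 1.43 or 7.14 brought each array to 500 (2% cut at each end). For the software version and detection calls: not given in the sources used. Symbols came from the platform annotation, updated through gene identifiers with a RefSeq table of GRCm38.p6 (names only): 20393 of 22690 A and 14674 of 22575 B probe sets had 1 symbol, 691 and 245 several, and 1606 and 7656 none. Control probe sets, 64 on each design, were removed.

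All 15338 A and 17145 B probe sets past the filter were fitted with limma 3.58.1 in R 4.3.3 (two-sided moderated test with an intensity trend in eBayes, adjusted within a design by Benjamini-Hochberg, threshold 0.05), and the fit was tested on simulated data. Intervals use limma's moderated SE and degrees of freedom. Tables and figures were made with Python 3.11.15 and matplotlib 3.10.9. The members, lists and tests were chosen with earlier results of these data known. All member probe sets are named, and of each pathway list up to 3 probe sets of smallest p per design, or fewer. Likeness was taken to the member of smallest p on the A array. Alternatives changed the pseudocount (1, 100), filter (none, 200), normalization, scaling, variance prior, array weights, probe set choice and samples, or added a replicate block.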

Additional observations from a re-analysis of the deposited data

How the results depend on the processing

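Under all 16 alternatives of each design 0 Wnt ligand probe sets passed the limma threshold, with a lowest adjusted p of 0.613 (A) and 0.777 (B). The sign was the same in every alternative for 9 of the 15 tested probe sets. Wnt7a on the A array turned to 0.028 with quantile normalization. With samples left out, it ranged from -0.153 to 0.067. The ranges were -0.333 to 0.054 for Wnt5a 1448818_at, -0.085 to 0.323 for Wnt5a 1456976_at and -0.183 to 0.614 for Wnt6 1435980_x_at. They were -0.26 to 0.147 for Wnt7a 1447647_at and -0.258 to 0.122 for Wnt9a 1436978_at. Unlike Wnt7a on the A array, these probe sets turned sign only in runs with a sample left out. Over all probe sets the 5 calls of the A array became 1 with no filter, 14 with array weights and 3 to 9 with a sample left out (9 without hindlimb 12, 3 without any other). The 2 calls of the B array became 1 with no filter, 0 without a trend and 1 to 4 with a sample left out (4 without hindlimb 12). A replicate block of consecutive sample numbers gave 8 and 4 calls and 0 members. Deviations of such pairs correlated at 0.208, 0.108 and 0.076 (A) and 0.002, 0.048 and 0.039 (B). The other forelimb and hindlimb combinations ran from -0.151 to 0.063 (A) and from -0.063 to 0.025 (B). The consecutive numbers thus correlated highest on the A array, and these values do not settle whether they are pairs. No label states pairs, so the main fit used none. Dim probe sets limit the account: 5 of 20 were under the filter, and without a filter their differences ran from -0.355 to 0.025 with a lowest limma adjusted p of 0.959.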
